A study of Mus musculus with 12 samples.

Results

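The genes described here make, or defend against, peroxidised phospholipids, the lipids whose oxidation drives ferroptosis. They are 10 named genes of the 55487 in the count table: Gpx4, Aifm2, Acsl4, Acsl3, Lpcat3, Dhodh, Gch1, Fads1, Fads2 and Elovl5. They were chosen by name, each was matched through its Ensembl identifier to a GENCODE M21 symbol, and all 10 passed the filter on low counts in every fit. RNA sequencing compared mouse cells kept for 4 days in culture medium that other cells had conditioned for 48 h.

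The groups are Hepa1 in ferroptotic medium, Hepa1 in control medium, mouse embryonic fibroblasts (MEFs) in ferroptotic medium and MEFs in control medium, with 3 libraries each. Hepa1 is a mouse hepatoma cell line labelled wild type. The MEFs were primary cells labelled Bach1 knockout, so cell type and Bach1 genotype cannot be told apart. The BACH1 protein holds genes of haem turnover and oxidant defence in a repressed state. The ferroptotic medium came from immortalised MEFs in which Bach1 had been re-expressed, and the control medium from control immortalised MEFs. Both media held 10% fetal bovine serum, and both were supplemented with 0.1 mM 2-mercaptoethanol, a thiol, and 0.4 mg/mL vitamin E, a lipid-soluble radical trap. All 4 groups thus received agents that are known to protect cells from ferroptosis, and fresh conditioned medium was given every day.

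Ferroptosis is an iron-dependent death in which polyunsaturated chains of membrane phospholipids are oxidised. FADS1, FADS2 and ELOVL5 desaturate and lengthen dietary fatty acids into such chains, ACSL4 activates them with coenzyme A and LPCAT3 inserts them into phospholipids, while ACSL3 activates the monounsaturated acids that compete for the same place. GPX4 reduces lipid hydroperoxides with glutathione, AIFM2 (also called FSP1) and mitochondrial DHODH reduce coenzyme Q, a radical trap, and GCH1 starts the synthesis of tetrahydrobiopterin, another one.

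The sequence of Gpx4 bears on how its reads were counted, so it is shown first. Gpx4 (ENSMUSG00000075706) lies on chromosome 10 (chr10:80047166-80056439 in GRCm38, plus strand), and its coding region holds an in-frame TGA that is read as selenocysteine. A processed pseudogene annotated as transcribed, Gpx4-ps2, lies elsewhere on chromosome 10 (chr10:45875291-45876086, plus strand) and copies the messenger RNA. Over 762 aligned bases without gaps, 760 were identical between a 959-base transcript of Gpx4 and the 782-base transcript of Gpx4-ps2 (99.7%). Both differences lie in the coding region of Gpx4 and are shown with capitals for the differing base and for the TGA. The first stretch is chr10:80054716-80054752 in Gpx4 and chr10:45875447-45875483 in the pseudogene, and the second is chr10:80056045-80056069 in Gpx4 and chr10:45875758-45875782 in the pseudogene. Counted from 1 at the first base shown, the changes are C9T in the first stretch and C13T in the second, with the base of Gpx4 given before that of the pseudogene.
Gpx4, first stretch: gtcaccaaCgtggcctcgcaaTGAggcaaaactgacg
Gpx4-ps2, first stretch: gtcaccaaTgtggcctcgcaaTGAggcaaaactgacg
Gpx4, second stretch: cattgataagaaCggctgcgtggtg
Gpx4-ps2, second stretch: cattgataagaaTggctgcgtggtg

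The promoters of 4 genes are shown because 2 of them, Fads2 and Elovl5, rose in both cell types, while Acsl4 fell in both and Gch1 had the largest fall of the 10 in Hepa1. RefSeq promoter windows (GRCm38.p6, 250 bases before to 50 bases after each start) were given for 8 of the 10, without Fads1 and Dhodh. Both strands were searched for the sterol response element TCACNCCAC, the CCAAT box CCAAT, the E-box CACGTG, the antioxidant response element TGACNNNGC and the GC box GGGCGG. Of 32851 promoters, 1.24%, 37.4%, 7.15%, 12.4% and 35.7% held them, in that order. None of the 8 had a match to TCACNCCAC or TGACNNNGC in its windows. The 250 bases before the start follow, with matches on either strand in capitals. They are chrX:142390536-142390785 (minus strand) for Acsl4, chr14:47189414-47189663 (minus) for Gch1, chr19:10101504-10101753 (minus) for Fads2 and chr9:77917115-77917364 (plus) for Elovl5. Acsl4 held a pair of overlapping GC boxes, Gch1 a CCAAT box and a pair of GC boxes, Fads2 a GC box, and Elovl5 a pair of CCAAT boxes and an E-box.
Acsl4: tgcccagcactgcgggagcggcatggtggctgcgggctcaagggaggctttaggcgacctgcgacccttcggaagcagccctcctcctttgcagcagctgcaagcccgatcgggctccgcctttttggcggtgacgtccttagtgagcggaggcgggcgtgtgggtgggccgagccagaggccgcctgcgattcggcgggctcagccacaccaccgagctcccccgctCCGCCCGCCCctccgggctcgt
Gch1: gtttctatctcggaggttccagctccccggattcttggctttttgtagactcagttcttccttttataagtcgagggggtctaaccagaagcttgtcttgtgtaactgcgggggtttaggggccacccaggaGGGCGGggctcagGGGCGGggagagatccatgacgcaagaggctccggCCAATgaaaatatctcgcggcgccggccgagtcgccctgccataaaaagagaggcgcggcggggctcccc
Fads2: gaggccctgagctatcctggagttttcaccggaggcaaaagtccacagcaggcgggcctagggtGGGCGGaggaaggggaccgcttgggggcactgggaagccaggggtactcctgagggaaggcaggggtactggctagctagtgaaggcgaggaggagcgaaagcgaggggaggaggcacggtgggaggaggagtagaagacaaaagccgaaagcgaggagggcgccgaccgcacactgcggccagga
Elovl5: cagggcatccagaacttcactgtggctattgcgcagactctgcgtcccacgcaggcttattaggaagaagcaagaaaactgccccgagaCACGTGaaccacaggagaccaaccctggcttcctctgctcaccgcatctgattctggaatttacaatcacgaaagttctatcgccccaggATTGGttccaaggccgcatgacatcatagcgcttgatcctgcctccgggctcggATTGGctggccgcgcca

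Libraries held 18582713 to 23397981 counted reads. Levels are given as CPM, a gene's reads scaled to a common library total, normalised within each cell type by the trimmed mean of M-values (TMM) unless they are called plain CPM. The labels were checked against marker genes. Alb, the serum albumin gene, had 5964 to 6183 reads per Hepa1 library in ferroptotic medium, 579 to 730 in control medium and 0 in every MEF library, and Afp and Trf were also read in Hepa1. Ttr, Apoa1, Serpina1a and Cyp2e1, further hepatocyte genes, had 0 reads in Hepa1, and Hnf4a had 1 read over all 6 Hepa1 libraries, so Hepa1 carried some hepatocyte markers and lacked others. Col1a2, a collagen gene, had 310396 to 357459 reads per MEF library, and 9 of the 10 fibroblast markers were lower in Hepa1 than in MEFs in either medium. The exception was Dcn, the decorin gene, at 329.5 ± 22 and 293.7 ± 26.8 CPM in Hepa1 in ferroptotic and control medium and 12.9 ± 1.61 and 3.75 ± 0.425 in MEFs (SD, n = 3 each). Col1a1, another collagen gene, was also read in Hepa1, with 133963 reads over the ferroptotic and 87993 over the control libraries. One library stood apart: Hepa1 in ferroptotic medium, replicate 3, held 368 Col1a2 reads, against 23 and 19 in replicates 1 and 2 and 12 to 13 in control medium, and values without it are given for Hepa1. Marker levels moved with the medium. In Hepa1, summed plain CPM of 12 hepatocyte markers was 1649.2 to 1800.2 in ferroptotic medium (7 to 8 markers at 0) and 485.4 to 500.7 in control medium (5 to 6 at 0), of 10 fibroblast markers 2746.9 to 2818.1 (1 to 3 at 0) and 1814.5 to 2132.7 (2 at 0), and of 8 macrophage markers 19.9 to 23.9 (2 to 3 at 0) and 43.2 to 48.8 (2 to 4 at 0). In MEFs the same sums were 8.38 to 12.1 in ferroptotic medium (8 to 9 at 0) and 24 to 26.3 in control medium (7 to 8 at 0) for hepatocyte markers, 43369.0 to 44574.7 and 47815.8 to 49843.0 (0 at 0 in either) for fibroblast markers, and 10.4 to 11.9 (3 at 0) and 7.91 to 9.84 (2 to 3 at 0) for macrophage markers. The macrophage markers did not move together in Hepa1: Cd68, Cd14 and Csf1r fell and Adgre1 and Lyz2 rose, with Cd68 at 3.55 ± 0.314 CPM in ferroptotic and 25.2 ± 3.53 in control medium and Adgre1 at 1.99 ± 0.323 and 0.0341 ± 0.0295 (SD, n = 3 each). Ptprc, the common leukocyte antigen, had 0 reads in every library. The fibroblast markers did not move together in MEFs: 6 of the 10 fell, and Postn, Lum and Dcn rose. Postn had 3252.4 ± 97.7 CPM there in ferroptotic and 1089.2 ± 55.7 in control medium (SD, n = 3 each). In Hepa1, 4 hepatocyte markers were tested and all 4 rose. Fgb, not tested, had 4 reads over the ferroptotic and 18 over the control libraries of Hepa1. The part of such shifts in the results was not tested. Bach1 had 120.9 ± 5.5 and 142.1 ± 4.22 plain CPM in Hepa1 in ferroptotic and control medium, and 75.2 ± 2.75 and 77.4 ± 4.78 in MEFs (SD, n = 3 each). Which exons the knockout removes is not given in the sources used here, so a count over the whole gene does not check that label. The labels do not state whether the 3 replicates of a group were grown apart, so every p-value is against a spread between libraries that may be technical.

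In Hepa1, ferroptotic medium lowered Gch1 to 0.54 of its control level, and the largest rise among the 10 genes was 1.35-fold, for Elovl5. The enzymes that make polyunsaturated chains (Fads1, Fads2 and Elovl5) rose, as did Lpcat3 and Dhodh. Acsl4 and Acsl3 fell. Gpx4 and Aifm2 did not pass the test. Of the 10 genes, 8 passed an adjusted p of 0.05 in the quasi-likelihood test of edgeR, 5 higher and 3 lower. Of all 13169 genes tested, 58.1% passed, 29.3% higher and 28.8% lower, so a high share of passing genes was general in these libraries. The median log2 change was 0.09 over the 10 genes and 0.00 over all genes tested, and the median absolute change 0.24 and 0.22. Without replicate 3 of the ferroptotic libraries, the one with raised Col1a2, 4 genes rose and 3 fell. The log2 changes were then 0.31 for Fads1, 0.27 for Fads2, 0.45 for Elovl5, 0.16 for Lpcat3, -0.28 for Acsl4, -0.12 for Acsl3 and -0.82 for Gch1, all past the threshold, and 0.17 for Dhodh, 0.02 for Aifm2 and 0.007 for Gpx4, which were not.

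In MEFs, ferroptotic medium lowered Acsl4 to 0.50 of its control level and raised Fads2 to 1.71 and Fads1 to 1.44 times theirs. Aifm2 fell, and Elovl5 and Acsl3 rose slightly. Gpx4, Lpcat3, Dhodh and Gch1 did not pass. Of the 10 genes, 6 passed, 4 higher and 2 lower, against 55% of 14441 genes tested (27.8% higher, 27.2% lower). Their median log2 change was 0.11, against 0.00 over all genes tested, and their median absolute change 0.15, against 0.20. Of the genes that passed, 50.5% were higher in each cell type, and with scaling by total counts alone 63.8% were higher in MEFs and 58.8% in Hepa1, as the median of all genes moved to 0.07 and 0.05. In bulk RNA, fewer cells that express a gene and less RNA of it per cell cannot be told apart.

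**Figure D1:**
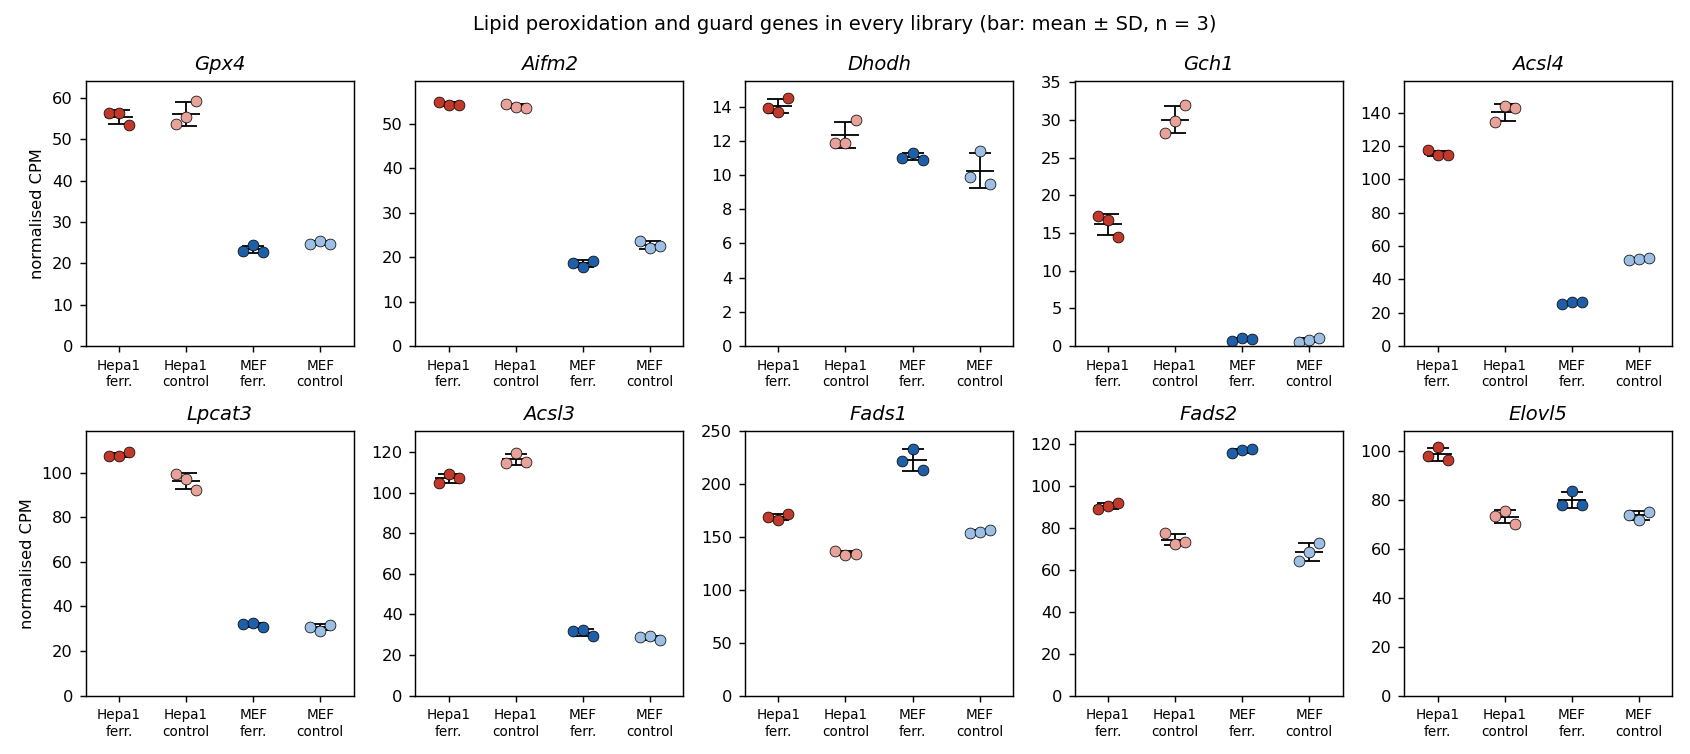
Normalised CPM of the 10 genes in every library (points), with the mean and SD of each group (bars, n = 3), for Hepa1 and MEFs in ferroptotic and control medium. Acsl4 in MEFs lies at 25.2 to 26.4 CPM in ferroptotic medium and 51.8 to 53.1 in control medium, and Gch1 in Hepa1 at 14.5 to 17.2 and 28.3 to 31.9. CPM is scaled within each cell type, so the points compare media and not cell types.

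The guards come first. Gpx4 had 56.4, 56.3 and 53.5 CPM in Hepa1 in ferroptotic medium and 53.7, 55.4 and 59.2 CPM in control medium. The groups overlapped, and the log2 change was -0.02 with a 95% interval of -0.12 to 0.08 (adjusted p = 0.768 in edgeR). In MEFs Gpx4 had 22.9, 24.4 and 22.8 CPM in ferroptotic medium, all below the 24.7, 25.5 and 24.7 CPM in control medium. Its log2 change there was -0.10 (interval -0.21 to 0.02) and missed the threshold (adjusted p = 0.155). The lower ends of the 2 intervals are falls to 0.92 and 0.86 of the control level.

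Of the reads counted for Gpx4 and Gpx4-ps2, most were assigned to the pseudogene. Gpx4-ps2 had 192.9, 194.2 and 195.8 CPM in Hepa1 in ferroptotic medium and 183.0, 174.7 and 195.9 CPM in control medium. In MEFs it had 73.3, 71.4 and 74.6 CPM in ferroptotic medium and 77.1, 73.7 and 78.7 CPM in control medium. For each read of Gpx4 there were 3.51 and 3.29 of Gpx4-ps2 in Hepa1 in ferroptotic and control medium, and 3.13 and 3.06 in MEFs. Of the 50-base stretches of that Gpx4 transcript, 68.9% also occur in Gpx4-ps2, and of those of Gpx4-ps2, 83.9% also occur in Gpx4. In sequence, a read from such a stretch matches both transcripts equally. These stretches are of spliced transcripts, while the reads were aligned to the genome. How reads across joined exons were placed there was not tested. From which of the 2 loci the counted reads came was not tested. Gpx4-ps2 itself did not pass in either cell type, at a log2 change of 0.07 in Hepa1 (adjusted p = 0.0992) and -0.07 in MEFs (adjusted p = 0.131). With the reads of both summed, an alternative chosen after the values were seen, the level was 249.7 ± 0.708 CPM in Hepa1 in ferroptotic medium and 240.7 ± 13 CPM in control medium (SD, n = 3 each). The summed log2 change was 0.05 in Hepa1 (adjusted p = 0.222) and -0.07 in MEFs (adjusted p = 0.0562), so no call was gained in either cell type.

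**Figure D2:**
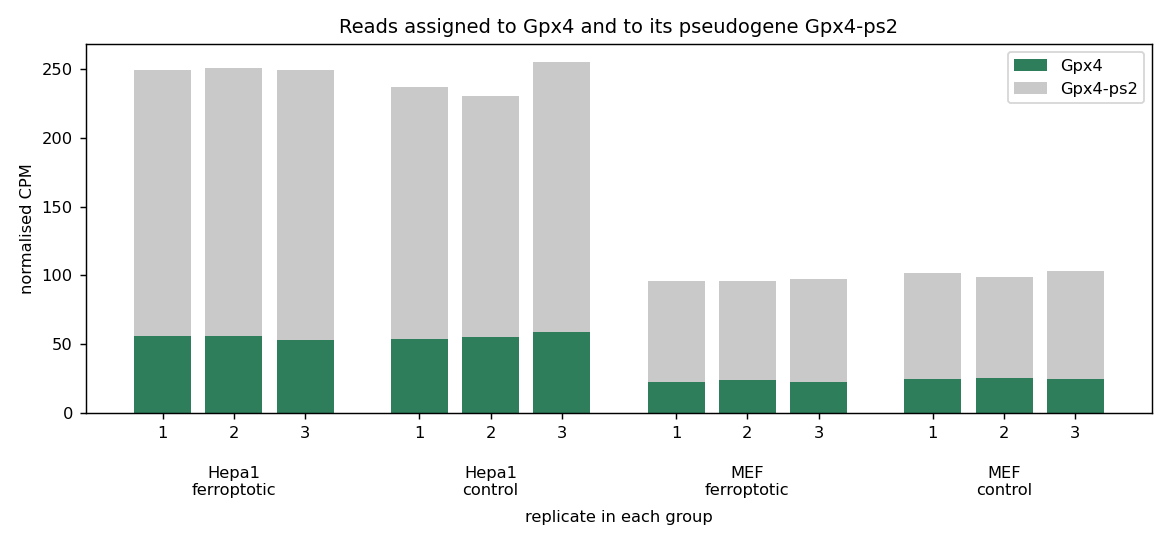
Normalised CPM assigned to Gpx4 (lower part of each bar) and to Gpx4-ps2 (upper part) in each library, grouped by cell type and medium. Gpx4 holds 21.5 to 25.7% of the summed reads, and the sum runs from 230.1 to 255.2 CPM in Hepa1 and from 95.8 to 103.5 CPM in MEFs. CPM is scaled within each cell type here. In the joint fit the log2 difference of the sum, Hepa1 over MEFs, was 0.82 in ferroptotic and 0.69 in control medium.

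Aifm2 (ENSMUSG00000020085, chr10:61715263-61739260, plus strand) encodes the enzyme that reduces coenzyme Q at membranes outside mitochondria. In MEFs it had 18.7, 17.8 and 19.2 CPM in ferroptotic medium, lower than all control libraries at 23.7, 22 and 22.6 CPM. It fell by 0.29 on the log2 scale (SE 0.0616, adjusted p = 5.66e-05). In Hepa1 the values were 54.9, 54.3 and 54.1 CPM in ferroptotic medium and 54.5, 53.8 and 53.6 CPM in control medium, and they overlapped. The log2 change in Hepa1 was 0.01 with an interval of -0.08 to 0.11 (adjusted p = 0.843). Aifm2 shares 4.5% of its 50-base stretches with H2afy2 on the opposite strand, which had 42.2 ± 0.44 and 40.2 ± 1.34 plain CPM in MEFs in ferroptotic and control medium (SD, n = 3 each) and a log2 change of 0.00 there (adjusted p = 0.991).

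Dhodh (ENSMUSG00000031730, chr8:109591343-109608673, minus strand), the mitochondrial enzyme of pyrimidine synthesis that passes electrons to coenzyme Q, was read at low level. In Hepa1 it had 13.9, 13.7 and 14.5 CPM in ferroptotic medium, above the 11.9, 11.9 and 13.2 CPM in control medium. It rose by a log2 of 0.19 (SE 0.0805, adjusted p = 0.043), and this call was lost when any of 5 of the 6 libraries was left out, the one with raised Col1a2 among them (adjusted p = 0.0619 to 0.143). It was lost as well with the Wald test of DESeq2 (adjusted p = 0.147) and with no filter on low counts (adjusted p = 0.0938). In MEFs Dhodh had 11, 11.3 and 10.9 CPM in ferroptotic medium and 9.87, 11.4 and 9.47 CPM in control medium. These overlapped, and the log2 change of 0.11 missed the threshold (interval -0.06 to 0.28, adjusted p = 0.287).

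Gch1 (ENSMUSG00000037580, chr14:47153895-47189413, minus strand) encodes GTP cyclohydrolase, the entry enzyme of tetrahydrobiopterin synthesis. It had 17.2, 16.7 and 14.5 CPM in Hepa1 in ferroptotic medium and 28.3, 29.8 and 31.9 CPM in control medium. Every ferroptotic library lay below every control library, and Gch1 fell by 0.90 on the log2 scale (SE 0.0719, adjusted p = 1.7e-11). Without replicate 3 of the ferroptotic libraries it fell by 0.82. In MEFs Gch1 was near the lower limit of these data, with 15, 25 and 22 reads in ferroptotic medium and 11, 19 and 21 reads in control medium. The log2 change in MEFs was 0.17 with an interval from -0.41 to 0.75 (adjusted p = 0.649) and covers both directions at this depth.

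Acsl4 (ENSMUSG00000031278, chrX:142317993-142390535, minus strand), the acyl-CoA synthetase that prefers arachidonic and adrenic acid, fell in both cell types. In MEFs it had 25.2, 26.4 and 26.4 CPM in ferroptotic medium and 51.8, 52.5 and 53.1 CPM in control medium. The groups lay far apart relative to their spread, and Acsl4 fell by 1.01 on the log2 scale (SE 0.0475, adjusted p = 5.31e-25). In Hepa1 it had 117.4, 114.6 and 114.6 CPM in ferroptotic medium and 134.6, 144.0 and 142.6 CPM in control medium, and fell by 0.28 (SE 0.0383, adjusted p = 3.97e-07). Every ferroptotic library lay under every control library in both cell types.

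Lpcat3 (ENSMUSG00000004270, chr6:124663027-124704418, plus strand), the acyltransferase that places arachidonic acid in phospholipids, had 107.3, 107.5 and 109.1 CPM in Hepa1 in ferroptotic medium and 99.2, 97.2 and 92.3 CPM in control medium. It rose by a log2 of 0.17 (SE 0.0399, adjusted p = 0.000788) without overlap of the groups. In MEFs Lpcat3 had 32, 32.5 and 30.8 CPM in ferroptotic medium and 30.7, 29.2 and 31.9 CPM in control medium, which overlapped. The log2 change was 0.06 (interval -0.05 to 0.16, adjusted p = 0.375), and 0.12 with scaling by total counts alone (adjusted p = 0.0398). Lpcat3 shares 8.39% of its 50-base stretches with Emg1 on the opposite strand. Emg1, a ribosome assembly gene, rose in Hepa1 as well, by a log2 of 0.22 (adjusted p = 0.000151), and its part in the counts of Lpcat3 was not tested.

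Acsl3 (ENSMUSG00000032883, chr1:78657825-78707743, plus strand), which activates oleic acid and other monounsaturated acids, moved in opposite directions. In Hepa1 it had 104.9, 109.2 and 107.0 CPM in ferroptotic medium, below the 114.6, 119.6 and 114.9 CPM in control medium, and fell by 0.12 on the log2 scale (SE 0.0386, adjusted p = 0.00865). That call was lost with scaling by total counts alone (adjusted p = 0.101) and without replicate 1 of the ferroptotic libraries (adjusted p = 0.0553). In MEFs it had 31.7, 32.4 and 29.2 CPM in ferroptotic medium and 28.9, 29.4 and 27.3 CPM in control medium. Here the groups overlapped, and the rise of 0.12 (SE 0.0537, adjusted p = 0.0487) was lost in 9 of the alternatives tried, with adjusted p of up to 0.216. Of its 50-base stretches, 3.59% are shared with Utp14b on the same strand, which rose by a log2 of 0.86 in MEFs (adjusted p = 1.28e-06) and 0.36 in Hepa1 (adjusted p = 0.00142). Utp14b had 4.88 ± 0.659 plain CPM in MEFs in ferroptotic medium and 2.56 ± 0.22 in control medium (SD, n = 3 each), and its part in the counts of Acsl3 was not tested.

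The genes that build polyunsaturated chains rose in both cell types. Fads2 (ENSMUSG00000024665, chr19:10062765-10101746, minus strand) encodes the delta-6 desaturase and had 115.5, 117.0 and 117.4 CPM in MEFs in ferroptotic medium, against 64.1, 68.3 and 72.8 CPM in control medium. It rose by a log2 of 0.77 (SE 0.0364, adjusted p = 7.38e-25). In Hepa1 it had 89.1, 90.5 and 91.9 CPM in ferroptotic medium and 77.4, 72.5 and 73.5 CPM in control medium, a rise of 0.28 (SE 0.0421, adjusted p = 1.71e-06). The groups did not overlap in either cell type.

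Fads1 (ENSMUSG00000010663, chr19:10182888-10196877, plus strand) encodes the delta-5 desaturase, the next step after a round of elongation, and lies 81141 bases from Fads2 on chromosome 19. In MEFs it had 221.6, 233.5 and 213.2 CPM in ferroptotic medium and 153.5, 154.9 and 156.6 CPM in control medium, a log2 rise of 0.52 (SE 0.0308, adjusted p = 6.28e-21). In Hepa1 it had 168.5, 166.3 and 171.9 CPM in ferroptotic medium and 136.5, 133.4 and 134.3 CPM in control medium, a rise of 0.33 (SE 0.0355, adjusted p = 7.07e-09). Both desaturases thus stood higher in every ferroptotic library than in every control library of the same cell type. Fads3, a relative with which Fads2 shares 0.152% of its 50-base stretches, instead fell by 0.20 on the log2 scale in Hepa1 (adjusted p = 1.27e-05) and had a log2 change of 0.02 in MEFs (adjusted p = 0.725).

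Elovl5 (ENSMUSG00000032349, chr9:77917364-77984519, plus strand), the elongase between the desaturation steps, had 98.0, 101.4 and 96.2 CPM in Hepa1 in ferroptotic medium and 73.4, 75.5 and 70.2 CPM in control medium. It rose by a log2 of 0.43 (SE 0.0425, adjusted p = 1.1e-09), the largest rise of the 10 genes in Hepa1. In MEFs it had 78.0, 83.4 and 77.9 CPM in ferroptotic medium and 73.9, 71.7 and 75.1 CPM in control medium, and the log2 rise of 0.12 (SE 0.037, adjusted p = 0.00607) was lost without replicate 2 of the ferroptotic libraries (adjusted p = 0.0736). In Hepa1 8 of the 10 genes, and in MEFs 6 of the 10, had no overlap between media in normalised CPM, against 62.6% and 60.2% of all genes tested. In MEFs these were Gpx4, Aifm2, Acsl4, Fads1, Fads2 and Elovl5.

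**Figure D3:**
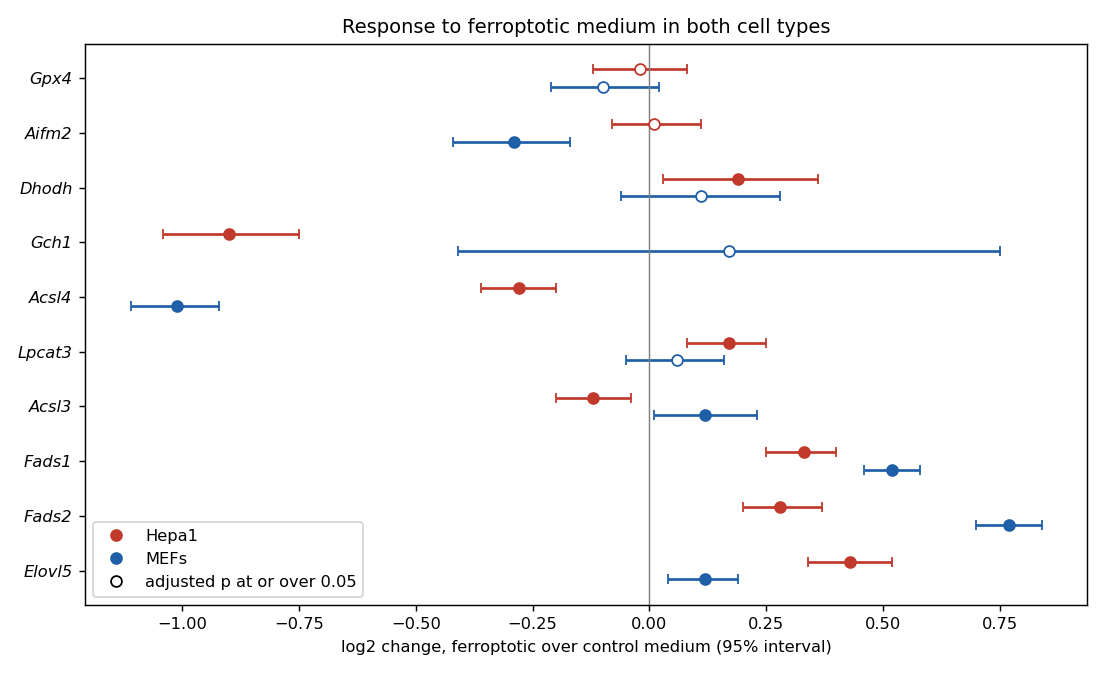
Log2 change of each gene in ferroptotic over control medium (x axis) in Hepa1 and in MEFs, with 95% intervals. Filled points passed an adjusted p of 0.05. Fads1, Fads2 and Elovl5 lie to the right of 0 and Acsl4 to the left in both cell types, and Gch1 has the widest interval in MEFs, -0.41 to 0.75.

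The responses of the 2 cell types were compared directly as the response of MEFs minus that of Hepa1, over all 12 libraries. Of the 10 genes, 7 differed, 4 with a positive and 3 with a negative difference, against 44.2% of 15627 genes tested (20.9% positive, 23.3% negative). Gch1 differed by 1.06 (SE 0.296, adjusted p = 0.00277), with a response in MEFs whose own interval covers both directions. Acsl4 differed by -0.74 (SE 0.0611, adjusted p = 6.78e-14), its fall being larger in MEFs. Both desaturases rose more in MEFs, Fads2 by 0.49 (SE 0.0589, adjusted p = 2.58e-09) and Fads1 by 0.19 (SE 0.0512, adjusted p = 0.00165). Elovl5 rose less in MEFs, with a difference of -0.32 (SE 0.0574, adjusted p = 1.05e-05). Aifm2 differed by -0.31 (SE 0.0751, adjusted p = 0.000678) and Acsl3 by 0.24 (SE 0.0662, adjusted p = 0.00243). For Gpx4 the difference was -0.08 (interval -0.23 to 0.07), for Lpcat3 -0.11 (-0.24 to 0.02) and for Dhodh -0.09 (-0.33 to 0.15), none of which passed (adjusted p = 0.425, 0.166 and 0.607 in edgeR). With the reads of Gpx4 and Gpx4-ps2 summed, the difference was -0.13 and passed (adjusted p = 0.0434).

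Between cell types, with cell type and Bach1 genotype confounded, all 10 genes differed in both media, 6 of them higher in Hepa1 and 4 lower. Of all 15627 genes tested, 88.2% differed in ferroptotic medium (41.5% higher in Hepa1, 46.7% lower) and 86.6% in control medium (40.7% higher, 46% lower). Gch1 had the largest difference, a log2 of 3.59 in ferroptotic medium and 4.66 in control medium. Acsl4 followed in ferroptotic medium at 1.60, against 0.87 in control medium. Acsl3 was higher in Hepa1 by 1.23 and 1.47, Lpcat3 by 1.21 and 1.10, Aifm2 by 1.00 and 0.69, and Gpx4 by 0.69 and 0.62, in ferroptotic and in control medium. The desaturases were lower in Hepa1, Fads1 at -0.95 in ferroptotic medium and -0.76 in control medium, and Fads2 at -0.92 and -0.43.

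These differences depended on the scaling. The TMM scaling factors of the joint fit were 1.18 to 1.24 in Hepa1 and 0.797 to 0.850 in MEFs, and scaling by total counts alone moved the median log2 difference of all genes, -0.08 in either medium, to 0.46 in ferroptotic medium and 0.49 in control medium. The share of passing genes that were higher in Hepa1 was 47.1% in ferroptotic and 47% in control medium with TMM, and 63.9% and 64.5% with total counts. Dhodh, at -0.20 in ferroptotic medium and -0.29 in control medium, turned to 0.33 and 0.27 under total counts. Elovl5, at -0.25 and -0.56, turned to 0.29 in ferroptotic medium and 0.002 in control medium. Fads2 turned to 0.13 in control medium. The 6 genes that were higher in Hepa1 kept their direction, as did Fads1.

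**Figure D4:**
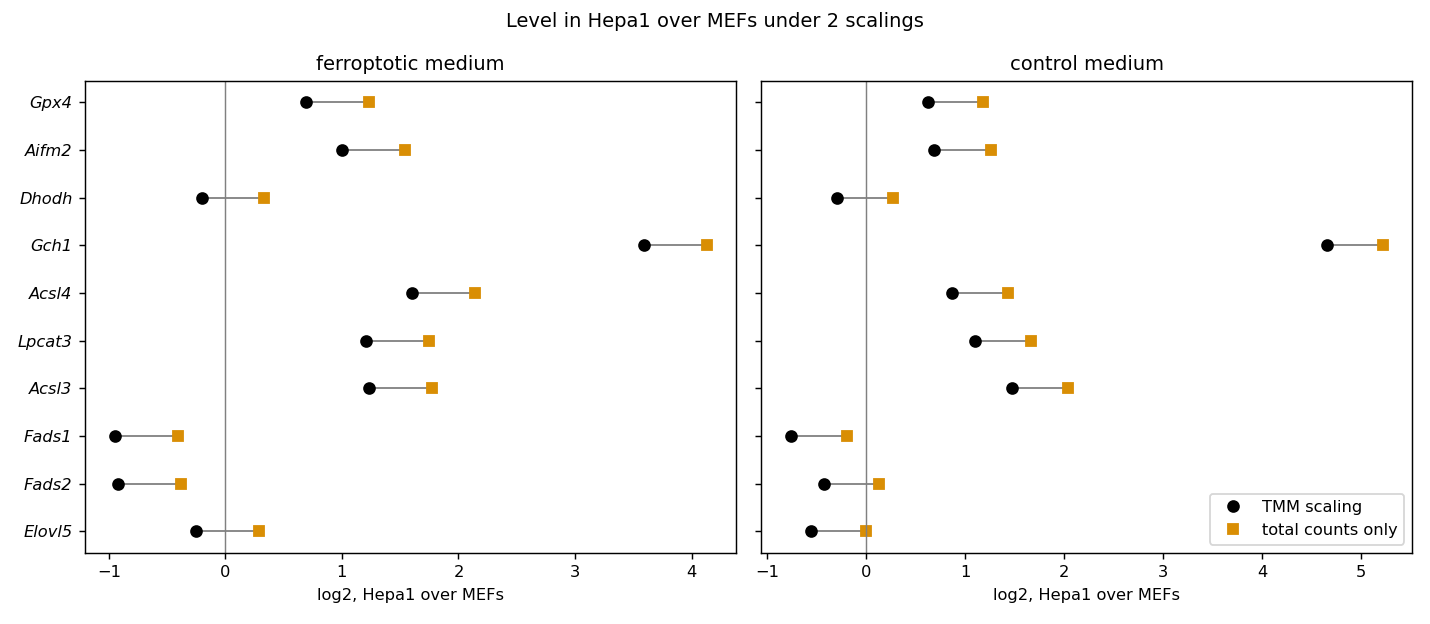
Log2 difference in level, Hepa1 over MEFs, for the 10 genes (x axis), in ferroptotic medium (left) and control medium (right), with TMM scaling (circles) and with total counts only (squares). All squares lie to the right of their circles, and those of Dhodh, Elovl5 and, in control medium, Fads2 lie on the other side of 0.

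Levels of different genes were compared as plain CPM per kilobase of exon. The value of Gpx4 holds only the reads assigned to it, 21.5 to 25.7% of those of Gpx4 and Gpx4-ps2 summed. Its place among the 10 with the reads of Gpx4-ps2 added was not ranked, so the orders below hold for assigned reads only. Fads1 was the highest of the 10 in MEFs, at 47.4 ± 2.03 in ferroptotic medium and 31.4 ± 0.291 in control medium (SD, n = 3 each). In Hepa1 in ferroptotic medium Fads1 (35.6 ± 0.618), Lpcat3 (33.5 ± 0.31) and Gpx4 (32.6 ± 0.978) stood close together at the top. With the length of the longest transcript instead, Gpx4 came first there, at 56.5 ± 1.69. Gch1 and Dhodh were lowest in every group, at 2.62 ± 0.233 and 2.26 ± 0.0649 in Hepa1 in ferroptotic medium, and at 0.148 ± 0.0361 and 1.79 ± 0.0305 in MEFs in ferroptotic medium. Across groups, plain CPM of Acsl4 ranked Hepa1 in control medium, Hepa1 in ferroptotic medium, MEFs in control medium and MEFs in ferroptotic medium from high to low, with no overlap between neighbours. The lowest 2 groups overlapped for Gpx4, Gch1 and Elovl5, and the highest 2 for Gpx4.

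Outside the 10 genes, the protein-coding gene whose pattern over the 12 libraries was most like that of Acsl4 was Aif1l (Pearson r = 0.9976 of log2 plain CPM with 0.5 added, over 12864 genes), that of Gch1 Pwp2 (0.9987), that of Fads1 Gng11 (0.9870), that of Fads2 Exoc4 (0.9839) and that of Elovl5 Atp1b3 (0.9813). For the other 5 the nearest were Foxa2 for Gpx4 (0.9988), Ube2g2 for Aifm2 (0.9990), Mllt6 for Acsl3 (0.9993), Stard7 for Lpcat3 (0.9994) and Larp7 for Dhodh (0.9572). These are descriptions over 12 libraries that fall into 4 groups. Among the 10 genes, 2 pairs were each other's nearest, Gpx4 with Acsl3 (r = 0.993) and Fads1 with Fads2 (r = 0.912).

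The other genes of these pathways were described by lists, whose counts stand against the shares of all genes tested that passed, 29.3% higher and 28.8% lower in Hepa1 and 27.8% higher and 27.2% lower in MEFs. Nothing particular to a list is read from them. A gene named as rising or falling passed an adjusted p of 0.05 in edgeR, and the standard errors of those log2 changes ran from 0.0289 for Gpx3 to 0.12 for Mboat1 and Ptgs2, apart from 0.251 for Aloxe3. With scaling by total counts alone, the medians in MEFs of 3 lists changed sign, to 0.03 for lipid oxidising enzymes, 0.04 for coenzyme Q and 0.05 for selenoprotein synthesis, and the other list medians of either cell type kept theirs. Of 13 tested genes of fatty acid elongation and desaturation in Hepa1, 6 rose and 4 fell (median log2 change 0.02, all genes 0.00), and of 14 in MEFs 7 rose and 2 fell (median 0.14, all genes 0.00). Scd2, a desaturase that makes monounsaturated acids, rose in both. It had 1317.3 ± 17.1 CPM in Hepa1 in ferroptotic medium and 758.0 ± 24.1 CPM in control medium, and 247.4 ± 12.1 and 125.1 ± 7.24 CPM in MEFs (SD, n = 3 each), with log2 changes of 0.80 and 0.98. Elovl6, which lengthens saturated and monounsaturated acids, rose by 1.35 in MEFs and 0.29 in Hepa1, and Elovl7 fell by 0.73 in Hepa1 and by 0.50 in MEFs.

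SREBP and LXR are the transcription factors of sterol and fatty acid supply. Of 15 of their regulators and targets tested in MEFs, 9 rose and 6 fell (median 0.16), and of 13 in Hepa1 5 rose and 4 fell (median -0.07). Abca1, the LXR target that exports cholesterol, fell by a log2 of 1.25 in MEFs and rose by 0.44 in Hepa1, and its responses differed (MEFs minus Hepa1 -1.69, adjusted p = 6.65e-25). Of 6 genes of sterol and squalene synthesis and vitamin K reduction, whose products trap lipid radicals, 5 rose in MEFs and 0 fell (median 0.48), among them Sqle (0.85). In Hepa1 0 of the 5 tested passed in edgeR, DESeq2 or limma-voom (median 0.01), 1 had an unadjusted p under 0.05 in edgeR, and 1 passed with total counts alone, with Dhcr7 at 0.22 (adjusted p = 0.0629) and Fdft1 at -0.15 (adjusted p = 0.0971). The difference of responses passed for Sqle (0.83, adjusted p = 4.37e-13).

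**Figure D5:**
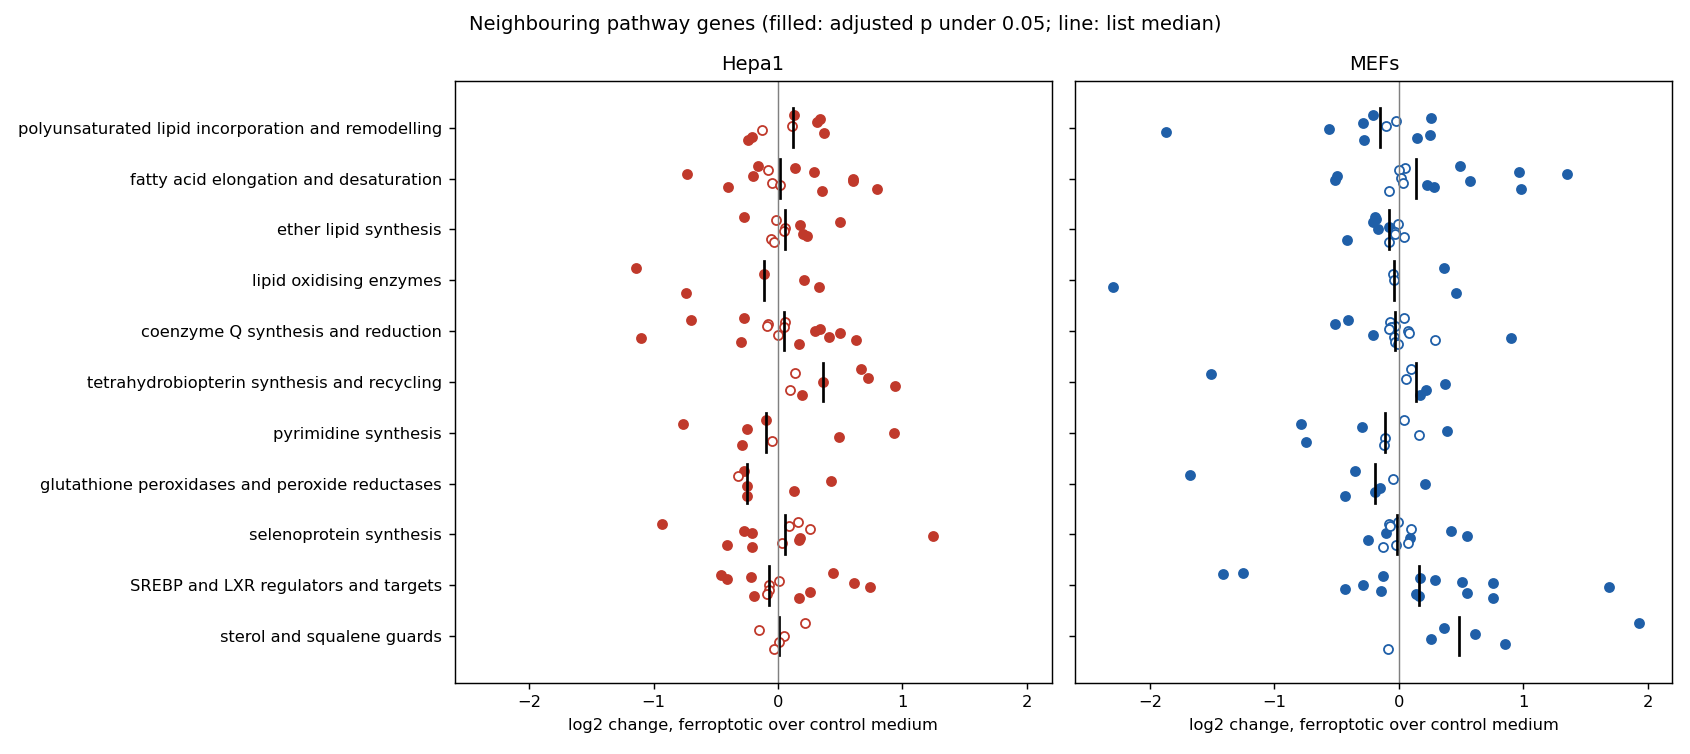
Log2 change in ferroptotic over control medium (x axis) of each tested gene of 11 lists, in Hepa1 (left) and MEFs (right). Filled points passed an adjusted p of 0.05 and vertical lines mark list medians. The sterol and squalene list has its median at 0.48 in MEFs and 0.01 in Hepa1, and the tetrahydrobiopterin list at 0.36 in Hepa1 and 0.13 in MEFs.

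Gch1 starts the synthesis of tetrahydrobiopterin. Of 7 other genes of its synthesis and recycling, 5 rose and 0 fell in Hepa1 (median 0.36), where 29.3% of all genes tested rose and 28.8% fell, and in MEFs 3 of 6 rose and 1 fell (median 0.13), where 27.8% rose and 27.2% fell. Pts, the second enzyme of the synthesis, had 13.4 ± 1.08 CPM in Hepa1 in ferroptotic medium and 7.01 ± 0.66 CPM in control medium (SD, n = 3 each), a log2 rise of 0.94, and rose by 0.37 in MEFs. Pcbd1, which recycles the cofactor, rose by 0.72 in Hepa1 and fell by 1.51 in MEFs, a difference of responses of -2.23 (adjusted p = 2.1e-22).

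AIFM2 and DHODH act on coenzyme Q. Of 15 genes of its synthesis and reduction, 6 rose and 4 fell in Hepa1 (median 0.05), near the 58.1% of all genes tested that passed there, and 1 rose and 3 fell in MEFs (median -0.03), a smaller share than the 55% of all genes tested. The difference of those counts was not tested. Nqo1, another quinone reductase gene, fell by 1.10 in Hepa1 (18.7 ± 1.38 CPM in ferroptotic medium, 40 ± 0.522 in control medium) and rose by 0.90 in MEFs (18.3 ± 1.21 and 9.78 ± 0.521 CPM, SD, n = 3 each). Its responses differed by 2.00 (adjusted p = 1.5e-21). Coq10b, which encodes a coenzyme Q binding protein, fell by 0.70 in Hepa1 and by 0.41 in MEFs. Of pyrimidine genes, the pathway that holds Dhodh, 2 of 7 rose and 4 fell in Hepa1 (median -0.10), and 1 of 8 rose and 3 fell in MEFs (median -0.12). Ctps, a CTP synthase gene, fell by 0.76 in Hepa1 and by 0.79 in MEFs, Tyms rose by 0.93 in Hepa1, and Uck2 fell by 0.75 in MEFs.

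Beside Gpx4, other glutathione peroxidase and peroxide reductase genes had 3 of 6 lower and 2 higher in Hepa1 (median -0.25) and 5 of 7 lower and 1 higher in MEFs (median -0.19). Gpx3, a secreted peroxidase gene, had 120.9 ± 0.549 CPM in MEFs in ferroptotic medium and 386.8 ± 1.1 CPM in control medium (SD, n = 3 each), a log2 change of -1.68. Prdx6 fell by 0.25 in Hepa1 and by 0.43 in MEFs, and Gpx8 rose by 0.43 and 0.21. Of 12 genes that serve selenoprotein synthesis, on which Gpx4 depends for its selenocysteine, 3 rose and 5 fell in Hepa1 (median 0.06), and 3 rose and 2 fell in MEFs (median -0.02). Selenop, the selenium carrier, rose by 1.25 in Hepa1 and 0.55 in MEFs, its uptake receptor gene Lrp8 fell by 0.93 in Hepa1, and Secisbp2, which binds the selenocysteine insertion element, rose by 0.42 in MEFs and fell by 0.27 in Hepa1.

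Of 11 further genes of lipid activation and phospholipid remodelling, 4 of 8 tested rose and 2 fell in Hepa1 (median 0.12), and 3 of 10 rose and 5 fell in MEFs (median -0.16). Mboat1, a lysophospholipid acyltransferase gene, had 2.68 ± 0.44 CPM in MEFs in ferroptotic medium and 9.83 ± 0.407 CPM in control medium (SD, n = 3 each), a log2 change of -1.87, and Lpcat4 fell by 0.56 there. Acsl5, an acyl-CoA synthetase gene, rose by 0.34 in Hepa1 and 0.26 in MEFs, and Agpat3, an acyltransferase gene, rose by 0.31 in Hepa1. Of ether lipid genes, which supply another pool of oxidisable chains, 4 of 10 rose and 1 fell in Hepa1 (median 0.06), and 0 of 11 rose and 6 fell in MEFs (median -0.08), where Selenoi fell by 0.42 and Chpt1 by 0.21. In Hepa1 Chpt1 rose by 0.50 and Agps fell by 0.27.

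Of 11 lipid oxidising enzymes and their partners, 5 were tested in each cell type, with 2 higher and 3 lower in Hepa1 (median -0.11) and 2 higher and 1 lower in MEFs (median -0.04). Aloxe3 was the 1 lipoxygenase gene tested, and in Hepa1 only. It had 44 reads in ferroptotic medium and 95 reads in control medium there (0.741 ± 0.0976 and 1.63 ± 0.186 CPM, SD, n = 3 each) and fell by 1.14 on the log2 scale (SE 0.251, adjusted p = 0.000309), the largest change of the list in Hepa1. MEFs held 29 and 15 reads of it in ferroptotic and control medium. The lipoxygenase genes Alox8 and Alox12b had 0 reads in every group, and Alox5, Alox12 and Alox15 had at most 11 reads in a group. A count of 0 allows up to 3 reads in a library, which is 0.128 to 0.161 plain CPM, for counting error only. Sat1, a polyamine acetyltransferase gene known from human cells to promote lipid peroxidation, fell by 0.74 in Hepa1 and rose by 0.46 in MEFs (difference of responses 1.20, adjusted p = 3.35e-21). Por, a cytochrome P450 reductase gene, rose by 0.33 in Hepa1. Ptgs2, often used as a marker of ferroptosis, fell by 2.30 in MEFs, with 2.37 ± 0.172 CPM in ferroptotic medium and 11.7 ± 1.28 CPM in control medium (SD, n = 3 each), and had 0 reads in Hepa1.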

How the data were processed

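RNA sequencing libraries from 12 samples in 4 groups of 3 were analysed. The authors trimmed reads with Trimmomatic 0.39, aligned them with STAR 2.7.10a to GRCm38/mm10 and used HTSeq 0.9.1, with FastQC 0.11.9, per the submitters' processing notes. The deposited values are raw counts per Ensembl gene, per the file headers and the values themselves, with no normalization. The annotation release, not given in the sources used here, and the strandedness, likewise not given, could not be taken into account. Symbols came from GENCODE M21 (55227 of 55487 identifiers named), and all 665904 values were equal to those of the per-sample files. Reads assigned to no feature (2.00 to 2.58%) or to several (3.66 to 4.03%) were left out, and 0 columns of other samples were present. How reads that align to several places in the genome were counted was not examined, so Gpx4 and Gpx4-ps2 summed may not hold all reads of that sequence.

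Counts were filtered (filterByExpr), scaled by TMM and tested in R 4.3.3 by edgeR 4.0.16 (glmQLFit, glmQLFTest), with Benjamini-Hochberg adjustment over all genes tested and a threshold of 0.05. Responses to medium were fitted on the 6 libraries of each cell type, and their difference and the cell comparisons on all 12. An exact permutation test of 3 against 3 cannot go below p = 0.1. The fit was also run on simulated counts. Far fewer genes were changed there than passed in these data, so that run checks neither the calls nor the scaling here. Alternatives were DESeq2 1.42.0, limma 3.58.1 (voom), other scalings and filters, a replicate block and leaving out each library. Named list genes are the 2 with the smallest adjusted p per list and cell type, and genes that share sequence or exons with one of the 10 were added. Aloxe3 and some markers were named after their values were seen. Some genes that this rule names are not reported here. The genes and lists were chosen with earlier results of these data known. Promoters are from RefSeq (GRCm38.p6) and transcripts from GENCODE M21.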

Additional observations from a re-analysis of the deposited data

Results flagged for a closer look

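The responses to ferroptotic medium differed between the cell types, by the interaction test of edgeR, for 7 of the 10 genes. As the response of MEFs minus that of Hepa1 on the log2 scale, the values were 1.06 for Gch1, 0.49 for Fads2, 0.24 for Acsl3, 0.19 for Fads1, -0.31 for Aifm2, -0.32 for Elovl5 and -0.74 for Acsl4. Of all genes tested, 44.2% differed by the same test, so such a difference was common. The value for Gch1 rests on 62 reads in MEFs in ferroptotic medium and 51 reads in MEFs in control medium.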

How the results depend on the processing

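Of 854 values of the 10 genes under alternatives, 817 kept their direction and side of the threshold, 23 lost a call, 2 gained one and 12 changed sign. In Hepa1, Gpx4 changed sign with total counts only (0.03) and with Gpx4-ps2 reads added (0.05, chosen after seeing the data), and ranged from -0.05 to 0.02 with 1 library left out. In MEFs, Gch1 ranged from -0.06 to 0.36 with 1 library left out, and the number of the 10 genes that rose from 2 to 4, with 2 without replicate 2 of the ferroptotic libraries. The difference of responses of Dhodh ranged from -0.14 to 0.005. For Hepa1 over MEFs, total counts only turned Dhodh (0.33), and Elovl5 (0.29) in ferroptotic medium, and Dhodh (0.27), Fads2 (0.13) and Elovl5 (0.002) in control medium, which left 2 and 1 of the 10 genes lower in Hepa1 where TMM gave 4. The lower level of Dhodh in Hepa1 in ferroptotic medium was lost with no filter (adjusted p = 0.0508) and without replicate 1 or 2 of Hepa1 in ferroptotic medium (adjusted p = 0.055 and 0.0665). The causes were not tested, beyond the number of libraries in the leave-outs. No count of genes past the threshold over all genes tested moved by over 1.5 times. Depth limits Gch1 in MEFs.

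No pairing by replicate number was seen: correlations of same-numbered deviations were -0.018 to 0.0261 in Hepa1 and -0.0106 to 0.00467 in MEFs. Such correlations over all genes could miss a weak pairing, so its absence is not shown. With a replicate block, 7437 genes passed in Hepa1 (7656 without) and 8073 in MEFs (7943 without), and Dhodh in Hepa1 had an adjusted p of 0.0542.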
